A study of Mus musculus with 4 samples.

Results

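The NRF2 antioxidant response genes are the transcription factor NRF2 (Nfe2l2), its inhibitor Keap1, and the target genes Nqo1, Gclc, Gclm, Hmox1, Txnrd1, Srxn1 and Slc7a11. They are 9 of the 23462 genes that could be named on the arrays. They were chosen by symbol, and every probe whose transcript accession belonged to them was taken, which gave 12 probes, each printed as 1 spot. Liver RNA from 4 groups of mice was measured on one-colour Agilent arrays, with 1 array per group. All mice were males on a C57BL/6 background, 24 weeks old, and carried floxed Lpiat1 alleles (the gene is now called Mboat7). F/F mice had no Cre, and LKO mice (Alb-Cre; Lpiat1F/F) also carried Cre driven by the hepatocyte promoter of albumin, so that other liver cells keep the gene. Each genotype received chow or, from 6 weeks of age and for 18 weeks, high fat diet (HFD). Values are given in the order F/F on chow, LKO on chow, then F/F and LKO on HFD. Pooling of mice is not described in the sources used here. With 1 array per group nothing was tested, and every difference below describes 2 arrays.

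NRF2 is a transcription factor that is made continuously and, in unstressed cells, is held in the cytoplasm by KEAP1, the substrate adaptor of a CUL3 ubiquitin ligase that marks it for the proteasome. Electrophiles and oxidants modify cysteines of KEAP1, NRF2 then accumulates, pairs with small MAF proteins in the nucleus and binds antioxidant response elements. Its targets make glutathione, reduce thioredoxin and peroxiredoxins, supply NADPH, and detoxify quinones and other reactive compounds, and the liver is a main site of these reactions.

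Promoter sequences of the genes show where a core form of the response element, given in letters, lies. The core TGACNNNGC, on the other strand GCNNNGTCA, was searched on both strands of the RefSeq promoters (GRCm38.p6, from 250 bases before to 50 after each start). Among all 32851 promoters of this length, 12.4% held it. The table had 9 promoters for 7 of the genes (Nfe2l2, Keap1, Nqo1, Gclm, Srxn1 and Slc7a11 with 1 each, Txnrd1 with 3), and Gclc and Hmox1 were not matched. The core was found in 4 of the 9, 1 each of Nfe2l2, Gclm, Txnrd1 and Srxn1. A match of letters describes these windows only, and other forms of the element were not searched. The 4 sequences below are those of the regulator, of Gclm, and of Srxn1 and Nqo1. Srxn1 and Nqo1 differed most between diets among the 8 genes well above background on every array. Capitals mark the core.
Nfe2l2, chr2:75704614-75704913, minus strand: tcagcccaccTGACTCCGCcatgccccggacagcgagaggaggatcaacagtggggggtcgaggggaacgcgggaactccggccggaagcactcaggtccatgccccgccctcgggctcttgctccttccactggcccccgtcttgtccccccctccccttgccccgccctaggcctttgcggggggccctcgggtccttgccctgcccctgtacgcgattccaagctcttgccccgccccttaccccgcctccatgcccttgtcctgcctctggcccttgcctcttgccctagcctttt
Gclm, chr3:122245307-122245606, plus strand: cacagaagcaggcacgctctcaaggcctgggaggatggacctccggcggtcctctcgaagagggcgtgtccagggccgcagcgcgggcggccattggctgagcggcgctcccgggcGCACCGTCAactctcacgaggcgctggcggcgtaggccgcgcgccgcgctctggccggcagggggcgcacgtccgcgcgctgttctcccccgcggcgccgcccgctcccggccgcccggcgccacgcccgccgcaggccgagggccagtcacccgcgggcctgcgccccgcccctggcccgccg
Srxn1, chr2:152105274-152105573, plus strand: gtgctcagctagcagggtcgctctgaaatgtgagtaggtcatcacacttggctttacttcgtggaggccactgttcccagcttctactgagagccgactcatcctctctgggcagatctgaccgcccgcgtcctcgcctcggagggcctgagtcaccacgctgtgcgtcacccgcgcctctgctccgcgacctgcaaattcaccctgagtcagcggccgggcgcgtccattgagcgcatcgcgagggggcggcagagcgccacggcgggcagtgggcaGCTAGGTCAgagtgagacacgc
Nqo1, chr8:107403156-107403455, minus strand: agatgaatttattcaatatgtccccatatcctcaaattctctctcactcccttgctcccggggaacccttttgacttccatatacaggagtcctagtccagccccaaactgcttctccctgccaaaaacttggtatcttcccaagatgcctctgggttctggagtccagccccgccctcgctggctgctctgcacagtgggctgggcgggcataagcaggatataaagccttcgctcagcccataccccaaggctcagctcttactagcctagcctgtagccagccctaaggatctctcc
In Nfe2l2 the core TGACTCCGC began 240 bases before the start, and in Gclm GCACCGTCA began 134 bases before it. In Srxn1 the letters GCTAGGTCA began 28 bases after the start. The window of Nqo1 did not hold these letters.

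The targeted gene was looked at first. Mboat7 has 1 probe, and its processed signal was 1102, 861, 1181 and 1100. Processed signals are the scanner intensities after background subtraction, and the 75th percentile of an array was 222, 213, 263 and 296. Differences are therefore given in log2 after each signal was divided by its own array's 75th percentile. On that scale Mboat7 differed between LKO and F/F by -0.30 on chow and -0.27 on HFD. Its position against the deleted exons was not determined here, so it is no full check of the labels.

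The error that can be given is technical. For probes with replicate spots on an array, 2 spots of the same probe differed with a SD of 0.09 (log2, 293 probes). At signals between 50 and 500, where the Nqo1 probe lies on all arrays and the dimmer Nfe2l2 probe on the chow arrays, the SD was 0.16, but it came from 17 probes. Pairs of probes of a gene differed more, with a SD between 0.27 (LKO against F/F on chow) and 0.42 (HFD against chow in LKO). Differences between mice are in none of these values.

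Every array measured 8 of the 9 genes well above background. Between genotypes, 0 of the 8 differed at least 2-fold on either diet. Of all 14981 genes compared on chow, 1.11% were higher in LKO by this factor and 1.03% lower. On HFD it was 2.36% and 1.91% of 15528 genes. Between diets, Nqo1 and Srxn1 were at least 2-fold higher on HFD in both genotypes, which is 2 of 8 genes in each. With normexp background correction, Srxn1 alone passed 2-fold in each. In F/F 5.21% of 15358 genes were at least 2-fold higher on HFD, and in LKO 8.12% of 15242. No member was at least 2-fold lower on HFD, beside 2.94% of all genes in F/F and 4.07% in LKO. The comparisons share arrays, since each array enters 2 of them, so their values are given side by side.

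**Figure D1:**
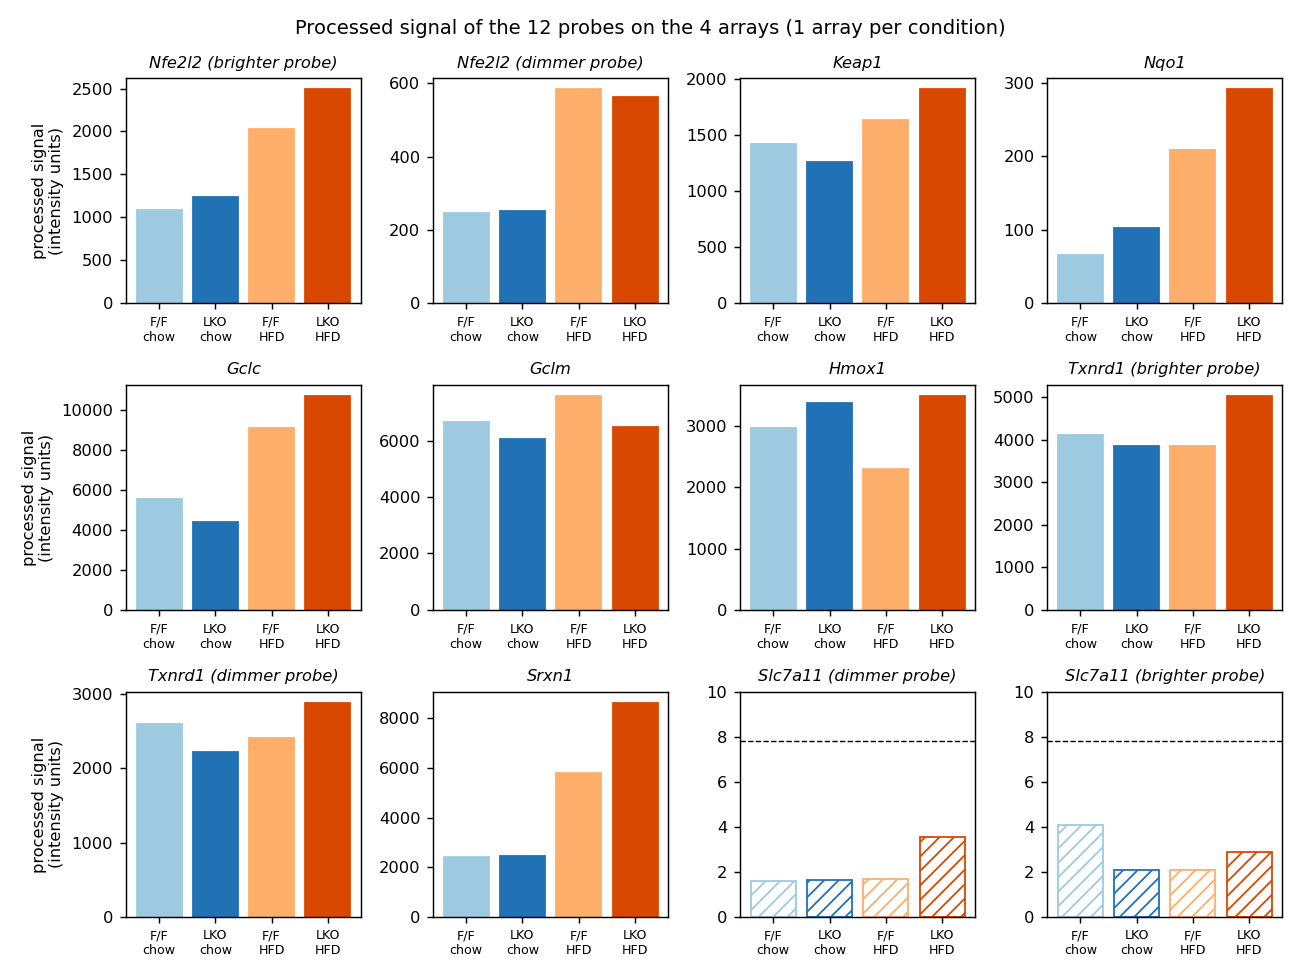
Processed signal (linear intensity units, each panel with its own axis from 0) of the 12 probes on the 4 arrays, 1 bar per array. Filled bars were well above background, hatched bars were not, and the dashed line in the Slc7a11 panels is the lowest signal well above background on any array, 7.80. The bars are not scaled between arrays, and every probe well above background has its highest bar on an HFD array. After normalization this held for Nqo1 and Srxn1, as for Nfe2l2, Keap1 and Gclc. Gclm, Hmox1 and the Txnrd1 probes were then highest on a chow array.

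The regulators come first. Nfe2l2 has 2 probes. The brighter one, for the coding transcript, had signals of 1090, 1235, 2030 and 2493, which are 2.30, 2.53, 2.95 and 3.08 (log2) above the 75th percentile. Both HFD arrays lay above both chow arrays, and neighbours in this order differed by more than the spread of replicate spots. HFD was higher than chow by 0.65 in F/F and 0.54 in LKO, and LKO was higher than F/F by 0.24 on chow and 0.13 on HFD. The dimmer probe, designed to a non-coding transcript of the gene, had signals of 247, 251, 585 and 564. It was higher on HFD by 0.997 in F/F, just under the 2-fold limit, and by 0.70 in LKO. The genotypes differed by 0.08 on chow, within the spread, and by -0.22 on HFD, so the 2 probes had opposite signs for LKO against F/F on HFD.

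Keap1, the adaptor that targets NRF2 for degradation, gave signals of 1417, 1259, 1635 and 1911. After normalization its 4 values lay within 0.13, and each neighbour in their order was within the spread of replicate spots. The differences were -0.11 for LKO against F/F on chow, 0.06 on HFD, -0.04 for HFD against chow in F/F and 0.13 in LKO. Of the 8 measured genes, Keap1 had the smallest span.

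The other regulators on the list (14 genes, all measured, among them Cul3, the small MAF genes, the competing repressors Bach1 and Bach2 and the KEAP1-binding autophagy receptor Sqstm1) had medians below 0 in each comparison. On chow 4 were higher and 10 lower in LKO (median -0.09), and on HFD 3 were higher and 11 lower (median -0.18). Of all genes 50.7% were higher in LKO on chow and 45.9% on HFD. Diet medians were -0.04 in F/F, which turned to 0.06 with quantile normalization, and -0.21 in LKO. There 2 regulators were higher on HFD and 12 lower, where 43.5% of all genes were higher. In LKO quantile normalization gave a diet median of -0.06, with 5 higher and 9 lower. Bach2 alone passed 2-fold, with signals of 66.3, 55.8, 39.3 and 41.8 and an HFD minus chow difference of -1.002 in F/F and -0.89 in LKO. With normexp background correction these were -0.51 and -0.49. The brightest probe of the list was that of Sqstm1, also a known NRF2 target. Its HFD minus chow difference was 0.32 in LKO and -0.08 in F/F, and the latter turned to above 0 in 2 of the alternatives.

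Glutathione synthesis is controlled by glutamate-cysteine ligase, a pair of the catalytic subunit GCLC and the modifier GCLM. Gclc had signals of 5535, 4383, 9110 and 10691, or 4.64, 4.36, 5.11 and 5.18 after normalization. LKO chow was lowest and both HFD arrays were highest, with the HFD arrays within the spread of each other. HFD was higher than chow by 0.47 in F/F and 0.82 in LKO. LKO differed from F/F by -0.28 on chow and 0.06 on HFD.

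Gclm did not show the pattern of Gclc. Its signals were 6653, 6055, 7580 and 6493, or 4.91, 4.83, 4.85 and 4.46 after normalization. LKO HFD was the lowest of the 4, and the other 3 arrays lay within the spread of their neighbours. LKO was lower than F/F by -0.39 on HFD and by -0.08 on chow, and HFD differed from chow by -0.06 in F/F and -0.37 in LKO. The F/F value turned to above 0 with quantile normalization.

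Slc7a11, which encodes the cystine importer xCT that feeds glutathione synthesis, was not well above background on any array by either of its 2 probes. Signals were 4.08, 2.09, 2.09 and 2.87 for one probe and 1.58, 1.65, 1.68 and 3.54 for the other. The lowest signals called well above background were 7.80, 8.09, 8.35 and 7.81. No fold is given for this gene.

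Among the other 13 glutathione genes, 12 had a value, and the median difference was 0.04 for LKO against F/F on chow, 0.08 on HFD, 0.02 for HFD against chow in F/F and -0.12 in LKO, which became 0.22 with quantile normalization. Ggt1 was not well above background by its brightest probe. The list's brightest probe belongs to Gpx1, a selenium-dependent glutathione peroxidase, and its 4 differences lay between -0.20 and 0.11, where the diet value in LKO turned to above 0 with quantile normalization. Gpx2, a related peroxidase known mainly from the gut epithelium, was the only one past 2-fold, with signals of 18.4, 9.94, 17.2 and 44.5. LKO was lower on chow (-0.83) and higher on HFD (1.20), and HFD was higher than chow by 1.69 in LKO and lower by -0.34 in F/F. These signals are close to the background. With normexp LKO minus F/F was -0.13 on chow and 0.43 on HFD, and HFD minus chow -0.20 in F/F and 0.35 in LKO. Exocrine pancreas markers, too, were highest on LKO HFD and next on F/F chow. Amy2a5, the brightest of their 7 probes, had signals of 2771, 1788, 1553 and 7177, and the list's summed level was 22.7, 13.6, 11.9 and 44.6 times the 75th percentile, with all 7 above background on each array. Their part in the Gpx2 values was not tested.

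Srxn1 and Txnrd1 serve the thioredoxin branch. Srxn1, sulfiredoxin, repairs overoxidized peroxiredoxins. Its signals were 2412, 2447, 5781 and 8634, or 3.44, 3.52, 4.46 and 4.87 after normalization. The chow arrays were within the spread of each other, F/F HFD was higher and LKO HFD was highest. HFD was higher than chow by 1.01 in F/F (2.02-fold) and 1.35 in LKO (2.55-fold). In F/F 4.18% of the 14282 genes measured on both arrays had a higher difference, and in LKO 3.94% of 14261. LKO was higher than F/F by 0.41 on HFD, and on chow the difference of 0.08 was within the spread.

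Txnrd1, the cytosolic thioredoxin reductase, has 2 probes, with signals of 4120, 3861, 3858 and 5034 for the brighter and 2596, 2222, 2407 and 2885 for the dimmer. After normalization both probes were lowest on F/F HFD and highest on F/F chow, with a span of 0.34 and 0.36. HFD minus chow in F/F was -0.34 and -0.36, and in LKO -0.09 by both probes. The values in LKO turned to 0.09 and 0.05 with quantile normalization. LKO differed from F/F by -0.04 and -0.17 on chow and by 0.22 and 0.09 on HFD. Txnrd1 thus did not share the diet difference of Srxn1 on these arrays.

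The other 13 genes of this branch (thioredoxins, peroxiredoxins, sestrins and Txnip) were all measured, and 0 of them passed 2-fold. HFD minus chow had a median of 0.10 in F/F, with 9 higher and 4 lower, and -0.27 in LKO, with 4 higher and 9 lower. LKO minus F/F had a median of 0.06 on chow and -0.16 on HFD, where 2 were higher and 11 lower. Of all genes 47.8% and 43.5% were higher on HFD in F/F and LKO, and 45.9% were higher in LKO on HFD. With quantile normalization the median was -0.03 for the diet in LKO and -0.01 for the genotypes on HFD, each with 6 higher and 7 lower. Prdx1, the brightest, lay between -0.37 and 0.06 in the 4 comparisons, and its other 2 probes gave -0.30 for HFD against chow in LKO. With quantile normalization its diet differences were above 0.

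Nqo1 encodes the quinone reductase most often used as a readout of NRF2. Its signals were 65.8, 102, 209 and 291, or -1.75, -1.07, -0.33 and -0.02 after normalization. F/F chow was lowest, LKO chow next, F/F HFD next and LKO HFD highest, with steps of 0.69, 0.73 and 0.31, each larger than the spread at this signal. HFD was higher than chow by 1.42 in F/F (2.67-fold) and 1.04 in LKO (2.06-fold). LKO was higher than F/F by 0.69 on chow (1.61-fold) and 0.31 on HFD. On chow 1.71% of 14185 genes measured on both arrays had a higher difference, the smallest such share of the 8 genes in any of the comparisons. Genes of every brightness enter this share, and the spread of replicate spots was larger at signals between 50 and 500 (0.16) than over 500 (0.07). With normexp the diet differences were 0.91 and 0.70, below 2-fold, and the chow genotype difference was 0.44.

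The other detoxification genes, 31 on the arrays and Gsta1 not found, include glutathione S-transferases, carbonyl and aldo-keto reductases, UDP-glucuronosyltransferases and export pumps. Their median was 0.07 for LKO against F/F on chow, 0.21 on HFD, 0.11 for HFD against chow in F/F and 0.06 in LKO. With quantile normalization the diet medians were 0.22 and 0.23, and in LKO 25 genes were higher and 6 lower in place of 18 and 13. Cbr3, a carbonyl reductase, was highest on LKO HFD, with signals of 272, 283, 945 and 2006. HFD was higher than chow by 1.55 in F/F and 2.35 in LKO, and LKO was higher than F/F by 0.92 on HFD and 0.11 on chow. Akr1b3, aldose reductase, had signals of 383, 367, 616 and 1219, with HFD higher by 1.26 in LKO and 0.44 in F/F, and its dimmer probe gave 1.30 and 0.47.

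Other genes of the list were lower on HFD. Osgin1, a gene known to be induced by oxidative stress, had signals of 3827, 3866, 1023 and 1860, and HFD differed from chow by -2.15 in F/F and -1.53 in LKO. It is a classic NRF2 target, and on the 4 arrays it was opposite to Nqo1, Srxn1 and Cbr3 in the direction of the diet difference. Gstp1, a glutathione S-transferase, had signals of 21988, 16593, 11002 and 15655, with differences of -1.25 in F/F and -0.55 in LKO. Ugt1a6a and the exporter Abcc1 passed 2-fold at low signals. Ugt1a6a (11.4, 23.9, 23.6 and 25.1) was higher in LKO by 1.12 on chow, or 0.29 with normexp. Abcc1 (17.9, 8.92, 29.1 and 40.1) was not well above background on LKO chow, and its HFD minus chow value in LKO is a bound, at least 3.25-fold. With normexp that bound was 0.18 (log2). Mgst1, the brightest of the list, lay between -0.54 and 0.13, and its diet differences turned to above 0 with quantile normalization.

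**Figure D2:**
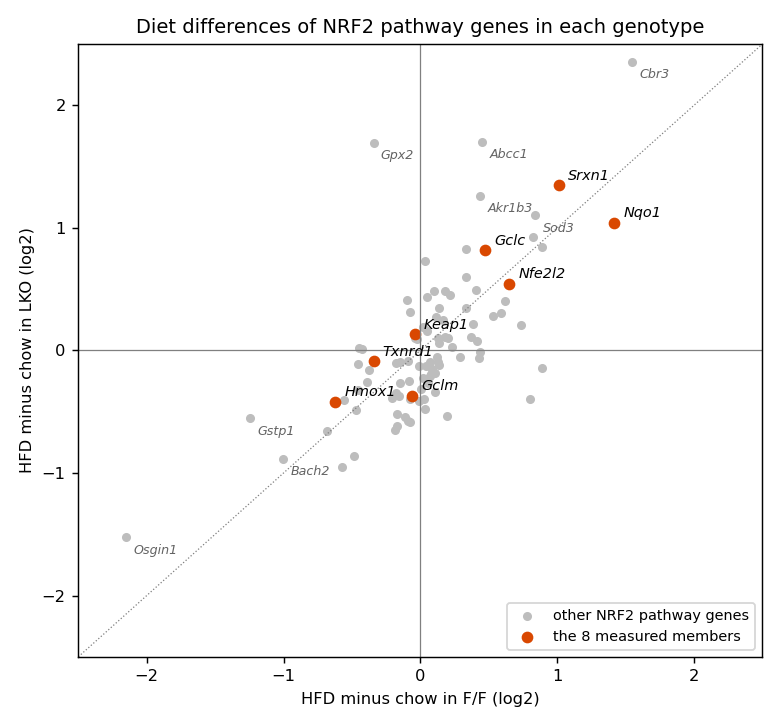
HFD minus chow (log2 difference) in F/F on the horizontal axis and in LKO on the vertical axis, for the 8 measured genes (orange) and the other NRF2 pathway genes (grey), 1 point per gene, with a dotted line where both are equal. Nqo1 (1.42 and 1.04), Srxn1 (1.01 and 1.35) and Cbr3 (1.55 and 2.35) lie in the upper right corner and Osgin1 (-2.15 and -1.53) in the lower left.

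Hmox1, heme oxygenase 1, degrades heme and is induced by NRF2 when heme relieves repression by BACH1. Its signals were 2975, 3370, 2295 and 3492, or 3.75, 3.98, 3.12 and 3.56 after normalization. F/F HFD was lowest and LKO chow highest, and LKO was higher than F/F on both diets, by 0.24 on chow and 0.44 on HFD. HFD was lower than chow in both genotypes, by -0.62 in F/F and -0.42 in LKO, a direction opposite to that of Nqo1, Srxn1, Gclc and Nfe2l2.

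Hmox1 is known to be abundant in macrophages that clear red cells, so markers of these cells are given beside it. The summed level of 12 macrophage genes was 79.1, 68.8, 93.5 and 115 times the 75th percentile, with 11 above background on each chow array and 12 on each HFD array. Csf1r, their brightest, had signals of 5097, 4665, 7557 and 10880. Gpnmb was not well above background on either chow array. The 6 Kupffer cell genes summed to 58.9, 63.8, 87.5 and 131, and Cd5l was their brightest (8540, 8813, 16520 and 29783). The genes of a list did not all share the order of its sum. For LKO against F/F on HFD, 11 macrophage genes were higher and 1 lower (median 0.85, lowest -1.64) and 4 Kupffer cell genes were higher and 2 lower (median 0.36, lowest -0.95). For HFD against chow in LKO the same counts held, with medians of 1.24 and 0.65 and lowest values of -1.32 and -1.25. The 5 erythroid genes with a value summed to 109, 107, 203 and 103, highest on the array where Hmox1 was lowest, and Hba-a1 was their brightest (15433, 14626, 39794 and 22589). For HFD against chow in F/F, 4 of the 5 were higher and 1 lower (lowest -0.42). In LKO 2 were higher and 3 lower (lowest -1.34). For LKO against F/F on HFD all 5 were lower. Whether any of these cells has a part in the Hmox1 values was not tested, and in whole liver more cells of a type and more RNA per cell cannot be told apart.

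The other heme and iron genes of the list (8, all measured, among them the ferritin genes Fth1 and Ftl1 and the iron exporter Slc40a1) had 0 past 2-fold. The median was 0.06 for LKO against F/F on chow, -0.12 on HFD, 0.11 for HFD against chow in F/F and -0.10 in LKO, and the values on HFD and in LKO were above 0 with quantile normalization. The 2 probes of Ftl1 had opposite signs in 3 of the 4 comparisons. The brighter gave -0.13 for LKO against F/F on HFD and -0.21 and -0.39 for the diet in F/F and LKO, and the dimmer 0.19, 0.15 and 0.14. With quantile normalization these 3 values of the brighter probe turned to above 0.

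NADPH supply genes had 0 past 2-fold. Of 7 genes of the pentose phosphate pathway, malic enzyme and isocitrate dehydrogenases, 6 were higher on HFD in each genotype, with a median of 0.41 in F/F and 0.31 in LKO. Of all genes 47.8% were higher on HFD in F/F and 43.5% in LKO, with medians of -0.02 and -0.07. Taldo1, transaldolase, the brightest, was higher by 0.37 in F/F and 0.11 in LKO, and its other probe gave 0.37 and 0.10. For LKO against F/F, 6 of the 7 NADPH supply genes were higher on chow (median 0.21) and 5 on HFD (median 0.06). The median on HFD was 0.17 with quantile normalization. Of all genes 50.7% were higher in LKO on chow and 45.9% on HFD. Of the 4 superoxide and peroxide genes, Sod3, the extracellular superoxide dismutase, was higher on HFD by 0.84 in F/F and 1.10 in LKO (signals 1272, 1159, 2703 and 3448). Sod1, the cytosolic form and brightest of this list, differed by -0.17 and -0.52, which turned to above 0 with quantile normalization. The median of these 4 was -0.02 and -0.31 for LKO against F/F on chow and HFD, and -0.13 and -0.43 for the diet in F/F and LKO, and the diet medians, too, were above 0 with quantile normalization.

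Over all 7 lists, 89 genes other than the 9 had a value in each comparison. Past 2-fold were 1 higher on chow in LKO (Ugt1a6a), 1 higher on HFD in LKO (Gpx2), 4 between diets in F/F (1 higher, 3 lower on HFD), and 6 between diets in LKO (5 higher, 1 lower). Over all genes the shares were 1.11% higher on chow in LKO, 2.36% higher on HFD in LKO, 5.21% higher and 2.94% lower between diets in F/F, and 8.12% and 4.07% in LKO. The median of the 89 was 0.06 for LKO against F/F on chow and -0.06 on HFD, and 0.05 for HFD against chow in F/F and -0.09 in LKO. With quantile normalization the values on HFD and in LKO were 0.06 and 0.09, above 0. Medians over all genes were 0.00, -0.03, -0.02 and -0.07. For the 8 measured NRF2 genes the medians were 0.02 (-0.03 with normexp), 0.17, 0.22 and 0.34. Of the 33 classic NRF2 targets of the list, 24 were higher and 9 lower in LKO on chow, 19 and 14 on HFD, and 20 and 13 on HFD in F/F and 19 and 14 in LKO, with medians of 0.08, 0.09, 0.05 and 0.10. With this scaling 50.7% and 45.9% of all genes were higher in LKO on chow and HFD, and 47.8% and 43.5% on HFD in F/F and LKO. With quantile normalization the last 3 comparisons of the 33 had 25 higher and 8 lower, 25 and 8, and 28 and 5. Their medians were 0.17, 0.21 and 0.32, beside 0, 0.03 and 0.01 over all genes. For the diet in LKO, quantile normalization raised bright genes of the list, such as Ftl1 (-0.39 to 0.11) and Prdx1 (-0.37 to 0.18). Genes of like brightness were not taken as a background. Among the 33, Cbr3 was at least 2-fold higher and Osgin1 at least 2-fold lower on HFD in both genotypes, as were 362 and 170 of all 13981 genes. Gstp1 (lower, in F/F) and Gpx2 (higher, in LKO) passed 2-fold between diets in 1 genotype.

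**Figure D3:**
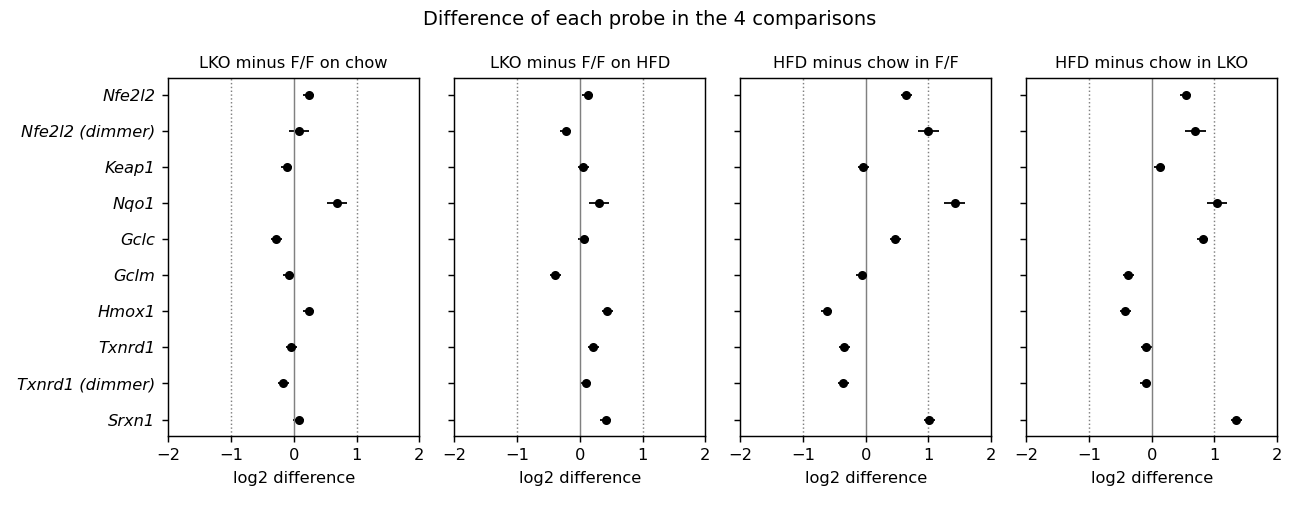
Log2 difference of the 10 measured probes in the 4 comparisons, 1 point per probe, with the SD of 2 replicate spots as error bar (0.16 where a signal was 500 or less, 0.09 elsewhere) and dotted lines at 2-fold. The points of Nqo1 and Srxn1 are beyond the dotted line in both diet comparisons, although the bars of Nqo1 in LKO and Srxn1 in F/F cross it, and no point is beyond it between genotypes.

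The genotype difference can be set beside itself on the other diet, since these comparisons use different arrays. LKO minus F/F on HFD less that on chow was 0.34 for Gclc, 0.33 for Srxn1, 0.25 and 0.26 for the Txnrd1 probes, 0.20 for Hmox1 and 0.17 for Keap1. It was -0.38 for Nqo1, -0.31 for Gclm, and -0.11 and -0.30 for the Nfe2l2 probes. LKO was higher than F/F on both diets for 4 of the 8 genes (Nfe2l2, Nqo1, Hmox1 and Srxn1), lower on both for Gclm, and of opposite sign for Keap1, Gclc and Txnrd1. Over all 13981 genes measured on the 4 arrays, 54.0% had the same sign on both diets. For the diet difference 7 of the 8 genes had the same sign in both genotypes, against 76.6% of all genes. With quantile normalization Gclm in F/F and Txnrd1 in LKO changed sign in this comparison.

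ATF4, the factor of the integrated stress response, shares Slc7a11 with NRF2 among its targets. The ATF4 list has 11 genes, Atf4 itself among them. On HFD 5 of them were at least 2-fold higher and Asns at least 2-fold lower in F/F. In LKO 3 were at least 2-fold higher on HFD. Of all genes, 5.21% were higher and 2.94% lower by this factor in F/F, and 8.12% higher in LKO. With normexp Psat1 (0.17 in F/F and 0.68 in LKO) and Asns (-0.91 in F/F) were under 2-fold. With quantile normalization Ddit4 (1.004) and Gdf15 (1.06) were past it in LKO too, so that 5 were higher in each genotype. Atf3 had signals of 86.9, 103, 1175 and 505 and Trib3 of 501, 419, 1521 and 1479, higher on both HFD arrays, as were Psat1 (12.7, 17.0, 33.0 and 103), Ddit4 (3417, 3939, 13177 and 9571) and Gdf15 (1422, 2262, 7757 and 5842). Asns, asparagine synthetase, was higher in LKO on both diets (214, 423, 111 and 452). LKO minus F/F was 1.04 for Asns on chow, and on HFD 1.86 for Asns, 1.48 for Psat1 and -1.39 for Atf3. The dimmer Asns probe gave 0.40 on chow. It was not well above background on F/F HFD, so its value on HFD is a bound, at least 1.43. No other gene of the list passed 2-fold between genotypes. Of all genes 1.11% were higher and 1.03% lower in LKO by this factor on chow, and 2.36% and 1.91% on HFD. With normexp Asns on chow (0.79) and Psat1 on HFD (0.74) were under 2-fold. Atf4 itself, brightest of the list, was lower on HFD by -0.43 in F/F and -0.34 in LKO.

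Of the NRF2 genes well above background, 2 had values spanning at least 1 (log2). Their nearest profiles were sought among 13980 other genes by Euclidean distance over the 4 arrays, each gene centred on its mean. Nearest to Nqo1 were Unc5b (0.03), Postn (0.08) and Hspb2 (0.08). Unc5b, a netrin receptor, had signals of 192, 304, 625 and 859, and Postn, periostin, had 82.5, 120, 246 and 361. Nearest to Srxn1 were Pdgfrb (0.05), Nfam1 (0.07) and Serinc2 (0.07). Pdgfrb, the PDGF receptor beta of stellate cells and pericytes, had signals of 63.7, 63.3, 149 and 234, and 78 genes lay within 0.2 of Srxn1, against 12 of Nqo1. With 4 arrays many genes share a profile.

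The tissue and the cell types present were checked by markers. All 10 hepatocyte genes were well above background on every array, and albumin had signals of 231569, 228565, 221091 and 222615. The list's summed level was 3814, 3845, 3043 and 2602, and all 10 were lower on HFD than on chow in both genotypes, with medians of -0.42 and -0.60. These values depend on the scaling. With quantile normalization the medians were -0.13 in F/F, with 3 genes higher and 6 lower, and -0.15 in LKO, with 3 higher and 7 lower. Stellate cell genes (8, all above background on each array) summed to 70.0, 74.1, 96.3 and 112. Nqo1, Srxn1, the brighter Nfe2l2 probe, Cbr3 and the sum of the Kupffer cell genes had the same order. The dimmer Nfe2l2 probe, Keap1, Gclc, Gclm, Hmox1 and Txnrd1 did not. How many of all genes have this order was not counted. Of 13981 genes, 4510 were higher on HFD in both genotypes, and 3460 were higher in LKO on both diets. Dcn, the brightest stellate cell gene, had signals of 13435, 13577, 20607 and 26717. All 8 stellate cell genes were higher on HFD in both genotypes, with medians of 0.57 and 0.80. All 8 were also higher in LKO on both diets, with medians of 0.20 on chow and 0.35 on HFD. Which cells gave the Nqo1 and Srxn1 signals was not tested.

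**Figure D4:**
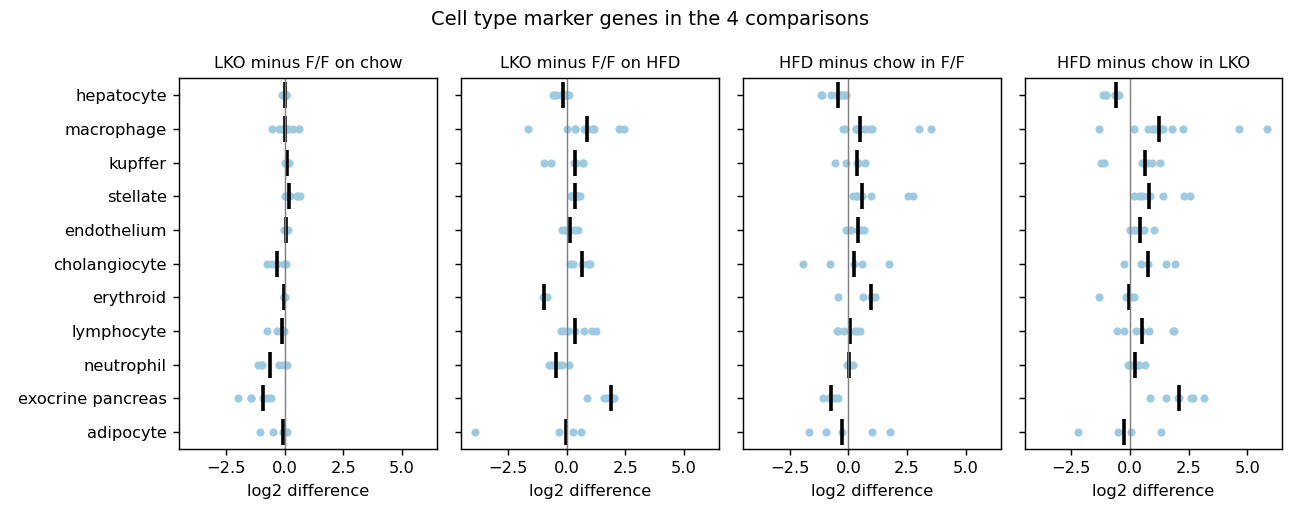
Log2 difference of each marker gene (points) and the median of its list (black mark) in the 4 comparisons, 1 row per cell type. With 75th percentile scaling, as drawn, hepatocyte genes lie below 0 in both diet comparisons, where quantile normalization placed 3 of the 10 above 0. Stellate genes lie above 0 in all 4, and exocrine pancreas genes lie below 0 for LKO against F/F on chow and above 0 on HFD.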

How the data were processed

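Liver RNA of 4 groups was measured on 4 Agilent one-colour arrays, 1 per group. The authors deposited spot intensity from Agilent Feature Extraction 12.0.3.1, per the file headers background-subtracted and detrended, and a table of values that equals this intensity times 1 factor per array. The factors were 2.60 for F/F and 2.63 for LKO on chow, and 2.41 and 2.10 on HFD, and their origin is not given in the sources used here. The column medians of that table were 34.5, 33.2, 36.1 and 36.0.

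From the processed signal, log2 minus the 75th percentile over the 59305 non-control spots of each array was taken in Python 3.11.15 (numpy 2.4.6, pandas 2.3.3). Outlier spots (76 to 132 per array) were left out of the mean of a probe but not of the 75th percentile. A probe with outlier spots alone kept its value and was counted as not well above background. No spot was saturated. Between 53.0% and 57.0% of spots were well above background, and the number of arrays limits the precision. Transcript accessions were named through RefSeq (GRCm38.p6), which matched 33767 of 56605 probes (59.7%). The brightest probe stood for a gene, and every probe of the 9 genes was described. A probe not well above background on 1 of 2 arrays gives a bound, the bright value against the higher of that array's lowest signal well above background and the probe's own. No test was made.

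Named were the 9 genes, Mboat7, pathway genes and ATF4 targets past 2-fold in any comparison, and the brightest gene of each list. Some genes not well above background were named too. So were the 3 nearest profiles of those of the 9 genes that were well above background and spanned at least 1 (log2). The members and lists were chosen with earlier results of these data known. Alternatives were normexp (offset 50, limma 3.58.1, R 4.3.3), quantile normalization, other sets for the 75th percentile, the deposited table, no filter, the mean of probes, genes above background on all 4 arrays, and 1.5-fold and 4-fold limits. The steps were tested on simulated data. Figures were drawn with matplotlib 3.10.9.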

Additional observations from a re-analysis of the deposited data

Results flagged for a closer look

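The values below had opposite signs in the groups compared. Those of single probes were, with 75th percentile scaling, each larger than the 0.09 spread of replicate spots, which comes mostly from probes with signals over 500. Medians of lists have no such spread here and are given for their sign alone. Each group is 1 array, and none of these differences was tested. For LKO against F/F, the value on HFD minus that on chow was 0.26 for the dimmer probe of Txnrd1 (-0.17 on chow and 0.09 on HFD), 0.39 for Sqstm1, -0.29 for Gpx1, 2.04 for Gpx2, 0.69 for Gstp1, -0.42 for Mgst1 and 1.25 for Abcc1, which was a bound on chow. Among ATF4 targets it was -1.69 for Atf3, -0.89 for Ddit4 and -1.30 for Gdf15. Medians of cell type lists gave 2.82 for exocrine pancreas (-0.92 on chow and 1.90 on HFD), 0.96 for cholangiocytes and 0.51 for lymphocytes. With normexp the medians on chow and HFD were -0.60 and 1.25 for exocrine pancreas, -0.03 and 0.29 for cholangiocytes and -0.09 and 0.04 for lymphocytes.

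For HFD against chow, the value in LKO minus that in F/F was -0.29 for Gpx1, 2.04 for Gpx2 and -1.20 for Ugt1a6a. The diet differences of Gpx1 were, with quantile normalization, both above 0 (0.44 in F/F and 0.34 in LKO), and for LKO against F/F on HFD Gpx1 (-0.02) and Mgst1 (-0.05) were within the spread. The medians of lists gave -0.37 for thioredoxin and peroxiredoxin genes, -0.21 for heme and iron genes and 2.81 for exocrine pancreas. The first 2 depend on the scaling. With quantile normalization the heme and iron medians were both above 0 (0.19 in F/F and 0.09 in LKO), and the thioredoxin and peroxiredoxin median in LKO was -0.03. Gpx2, Ugt1a6a and Abcc1 had signals under 50, where no spread was computed, and the sizes of their differences changed with the background correction. With normexp the difference of Ugt1a6a in F/F (0.06) was below 0.09. For LKO against F/F on HFD, Abcc1 (0.01) and the dimmer Txnrd1 probe (0.04) were below it too. For LKO against F/F on chow, Mgst1 was 0.085 with normexp, and Mgst1 and Gpx1 were each 0.087 with quantile normalization, also below 0.09.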

How the results depend on the processing

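Of 40 differences (10 probes, 4 comparisons), all kept their sign with normexp, the deposited table, no filter and both other percentiles, and 37 with quantile normalization, where Gclm in F/F and both Txnrd1 probes in LKO changed sign for the diet. Normexp moved 8 of the 40 by more than 0.09, quantile normalization 11, and the other alternatives 0. Here 0.09, the spread over all replicate spots, was used at every signal. The largest shift was 0.51, for Nqo1 between diets in F/F with normexp. The counts below are for LKO against F/F on chow and on HFD, then HFD against chow in F/F and in LKO, where 321, 662, 1252 and 1859 of all genes, 1, 1, 4 and 6 other pathway genes and 0, 0, 2 and 2 of the NRF2 genes were past 2-fold in either direction. With normexp they were 39, 179, 358 and 667 genes, 0 and 0 pathway genes between genotypes, and 1 and 1 NRF2 genes (Srxn1) between diets. Normexp adds an offset, which lowers differences of dim probes. Without filter and floor, 1479, 1885, 2717 and 3420 of all genes were past 2-fold, by construction with dim probes counted. With genes above background on all 4 arrays alone, 151 and 369 were past it between genotypes. This left out bounds, and also genes not well above background on an array outside the comparison. At 1.5-fold there were 1046, 2197, 3507 and 4136 genes, 4, 9, 13 and 18 pathway genes, and 1 (Nqo1), 0, 4 (Hmox1 lower) and 3 NRF2 genes. At 4-fold there were 75, 107, 230 and 325 genes, 0, 0, 1 and 1 pathway genes, and 0 and 0 NRF2 genes between diets. The percentile sets, quantile normalization, the deposited table and the mean of probes left each count within 1.5 times. Each group has 1 array, and no paired or blocked analysis was made. Signal over background limits Nqo1, Gpx2, Ugt1a6a, Abcc1 and Slc7a11.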

Other observations

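Other cell type lists were read on the same arrays. The 7 exocrine pancreas genes were all well above background, all lower in LKO on chow and all higher in LKO on HFD. Endothelial genes (6) had medians of 0.06 and 0.13 for LKO against F/F on chow and HFD, and 0.42 and 0.41 for HFD against chow in F/F and LKO. Cholangiocyte genes (5) had diet medians of 0.23 in F/F, which was -0.01 with normexp, and 0.75 in LKO, which was 0.39 with normexp. On HFD 3 of them were higher and 2 lower in F/F, from -1.93 to 1.73, and 4 higher and 1 lower in LKO, from -0.26 to 1.91. Spp1, their brightest, had the highest value in both. Neutrophil genes (6) had medians of -0.61 and -0.44 for LKO against F/F on chow and HFD, and S100a9, their brightest, had signals of 3396, 1648, 4290 and 2879. Lymphocyte genes (8) were lower in LKO on chow for all 6 with a value and higher in LKO on HFD for 5 of 7. Adipocyte genes (5) differed in both directions, from -1.05 to 0.09 and from -3.90 to 0.63 for LKO against F/F on chow and HFD, and from -1.66 to 1.76 and from -2.23 to 1.34 for the diet in F/F and LKO. Fabp4, their brightest, had signals of 1462, 1353, 3526 and 4739. The part of these cells in the values of the NRF2 genes was not tested.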
